A study of Homo sapiens with 12 samples.

Results

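The 10 genes described here belong to the NF-kB pathway: the subunits NFKB1, NFKB2, RELA, RELB and REL, the inhibitors NFKBIA, NFKBIE and TNFAIP3, and the target genes BIRC3 and ICAM1. They were taken by symbol from the deposited table, where they are 10 of 26365 rows, and all 10 had 10 or more normalized counts in 2 or more libraries, the filter used here. HCC70 is an established human breast cancer cell line of the basal-like, triple-negative kind. Cells stably carrying an shRNA against LAD1 (shLAD1) were compared with cells stably carrying a scrambled shRNA (scramble). Both were held overnight in medium without serum and then given epidermal growth factor (EGF) at 50 ng/ml for 0, 40 or 240 min. The 6 groups, of 2 libraries each, are shLAD1 at 0, 40 and 240 min and scramble at 0, 40 and 240 min. LAD1 encodes ladinin-1, which the series title describes as a filamin binder in the actin response to EGF.

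NF-kB proteins are dimers of 5 related subunits. In resting cells the IkB proteins hold most of these dimers in the cytoplasm. When the IKK kinases are activated, the IkB proteins are degraded and the dimers enter the nucleus, where they switch on genes for survival, adhesion and inflammation. The targets include several of the pathway's own inhibitors and subunits, which gives feedback loops. Basal-like breast cancer lines are known for a raised basal activity of this pathway.

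The design limits what each comparison can separate. The labels give no sample kept without EGF to 40 or 240 min, so EGF and elapsed time cannot be told apart. The labels name a single shRNA against LAD1, so loss of LAD1 cannot be told apart from another effect of that shRNA. Within each kind of cell, the comparisons with 0 min share the same 0 min libraries. The labels number the libraries 1 and 2 in each group without saying that they came from separate cultures, so p-values measure the spread between these libraries, which may be technical. In whole-cell RNA, fewer cells expressing a gene and less RNA per cell cannot be told apart.

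The libraries held 12428618 to 16721013 reads. LAD1 itself had 978 ± 160.1 normalized counts in shLAD1 cells at 0 min, against 6165 ± 340 in scramble cells (SD, n = 2 each), and it was lower in shLAD1 cells at each time (adjusted p = 0.00012 at 0 min, 0.000195 at 40 min and 0.00153 at 240 min). A normalized count is the number of reads of a gene divided by the size factor of its library. The basal keratin KRT5 ran from 39623 to 78195 normalized counts and the basal keratin KRT14 from 520 to 1882. Of the luminal and hormone receptor markers, PGR ran from 0 to 1.03 and ESR1 from 18 to 29, while the luminal factor GATA3 ran from 1198 to 1709. Library 2 of shLAD1 at 240 min stood above library 1 for 10 of the 10 genes described here, by up to 2.27 times (BIRC3). At 0 and 40 min library 2 of shLAD1 was also the higher for all of them but NFKB2 and ICAM1. For BIRC3 it was then 2.06 and 1.77 times library 1. How many of all genes were higher in library 2 was not counted. Calls that ended without library 2 of shLAD1 at 240 min are given with and without it.

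The promoters of the inhibitors NFKBIA and TNFAIP3, of BIRC3 and of REL are shown as examples of genes that changed with EGF in shLAD1 cells. That of ICAM1 is shown because it differed most between shLAD1 and scramble cells. NFKB2 and RELA also changed with EGF in shLAD1 cells, and their windows are not printed. The windows come from RefSeq, build GRCh38.p14, and run from 250 bases before to 50 bases after the transcription start, 5′ to 3′ along the strand of the gene. Capitals mark matches to the 10-base kB consensus GGGRNWYYCC, read on both strands, where R is A or G, N any base, W A or T and Y C or T.
NFKBIA, chr14:35404700-35404999, minus strand: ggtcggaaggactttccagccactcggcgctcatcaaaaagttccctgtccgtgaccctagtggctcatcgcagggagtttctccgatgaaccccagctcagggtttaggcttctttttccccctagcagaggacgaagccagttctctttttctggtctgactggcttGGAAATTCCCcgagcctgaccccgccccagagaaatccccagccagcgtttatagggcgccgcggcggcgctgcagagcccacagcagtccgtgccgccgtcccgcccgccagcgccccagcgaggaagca
TNFAIP3, chr6:137867009-137867308, plus strand: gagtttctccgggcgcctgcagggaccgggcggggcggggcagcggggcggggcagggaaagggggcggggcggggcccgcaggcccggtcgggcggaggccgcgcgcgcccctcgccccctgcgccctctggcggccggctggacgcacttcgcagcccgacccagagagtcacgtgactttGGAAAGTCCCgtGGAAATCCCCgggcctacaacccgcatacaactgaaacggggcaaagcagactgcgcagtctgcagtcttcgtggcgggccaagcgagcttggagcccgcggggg
BIRC3, chr11:102317234-102317533, plus strand: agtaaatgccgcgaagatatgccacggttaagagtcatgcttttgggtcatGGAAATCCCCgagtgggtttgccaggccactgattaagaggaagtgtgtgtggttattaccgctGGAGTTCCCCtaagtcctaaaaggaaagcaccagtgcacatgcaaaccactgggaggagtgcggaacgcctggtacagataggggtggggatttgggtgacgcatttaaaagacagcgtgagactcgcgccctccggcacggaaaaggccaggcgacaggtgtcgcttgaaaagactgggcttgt
REL, chr2:60881324-60881623, plus strand: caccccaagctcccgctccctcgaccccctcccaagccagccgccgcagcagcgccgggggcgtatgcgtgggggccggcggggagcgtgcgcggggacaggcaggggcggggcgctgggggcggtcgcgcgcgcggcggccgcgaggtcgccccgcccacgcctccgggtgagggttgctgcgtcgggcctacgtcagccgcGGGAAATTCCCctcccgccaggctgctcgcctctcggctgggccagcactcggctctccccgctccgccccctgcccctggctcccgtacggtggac
ICAM1, chr19:10270870-10271169, plus strand: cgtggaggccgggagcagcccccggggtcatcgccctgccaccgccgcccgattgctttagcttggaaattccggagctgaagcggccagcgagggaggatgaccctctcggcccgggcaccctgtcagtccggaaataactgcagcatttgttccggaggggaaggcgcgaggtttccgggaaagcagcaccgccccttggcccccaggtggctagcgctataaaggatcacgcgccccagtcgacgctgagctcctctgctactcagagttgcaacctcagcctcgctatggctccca

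Of the 10 genes, 8 had an entry in the RefSeq promoter table, with 12 windows in all; RELB and NFKBIE were not matched. A kB consensus match lay in 7 windows of 6 genes, NFKB1, NFKB2, REL, NFKBIA, TNFAIP3 and BIRC3. Among all 35116 RefSeq promoter windows of this length, 5.91% held a match. The 10 genes were chosen as NF-kB subunits, inhibitors and targets, so setting their windows beside this share is a description and not a test. NFKBIA held GGGAATTTCC on the strand opposite to the gene, from base -81 to base -72. TNFAIP3 held GGGACTTTCC from base -67 to base -58 and GGGGATTTCC from base -55 to base -46, both on the opposite strand and close together. BIRC3 held GGGGATTTCC from base -199 to base -190 and GGGGAACTCC from base -135 to base -126, also on the opposite strand. In REL a match on each strand overlapped, GGGAAATTCC from base -47 to base -38 and GGGAATTTCC from base -46 to base -37. NFKB1 held GGGAATTTCC from base -49 to base -40 at the first of its 2 starts. The windows of RELA and ICAM1 held no full match to the consensus. That of ICAM1 holds TGGAAATTCC, which departs from the consensus only in its first letter, and such near matches were not counted. The AP-1 site TGANTCA, searched on both strands, was in none of the 12 windows and in 7.71% of all windows. These matches are letters in a sequence and were not measured as binding.

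**Figure D1:**
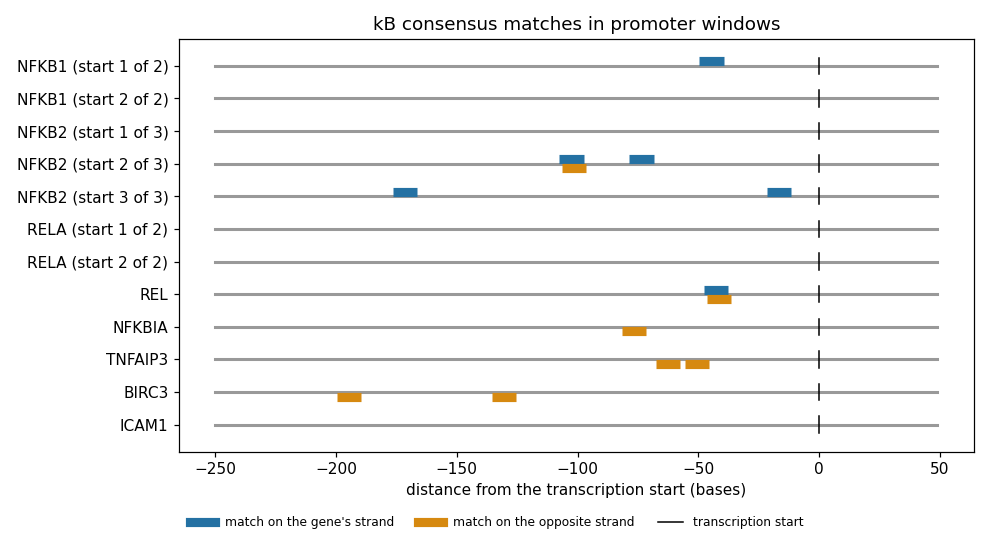
Matches to the kB consensus in the 12 RefSeq promoter windows of 8 genes, drawn to scale in bases from the transcription start, with matches on the gene's strand above the line and those on the opposite strand below it. The 7 windows with a match belong to 6 genes, and those of RELA and ICAM1 held no full match to the consensus.

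The genes differed in how much RNA they gave, and the inhibitor NFKBIA stood near the top. Per kilobase of exon (GENCODE v29), the mean level over the 6 groups was 608 normalized counts per kb for RELA and 479.6 for NFKBIA. NFKB2 had 314, NFKB1 175 and RELB 137 normalized counts per kb. The lower levels per kb were 72.8 for ICAM1, 65.7 for BIRC3, 47.6 for NFKBIE, 35.1 for REL and 25.3 for TNFAIP3. Pooled over times and shRNAs, the 12 libraries' ranges of each neighbouring pair in this order overlapped. Within groups, NFKB2 lay above NFKB1 in both libraries of all 6 groups. RELA lay above NFKBIA, NFKBIA above NFKB2 and RELB above ICAM1 in 5 of 6 groups. ICAM1 lay clear above BIRC3 in 1 group and clear below it in 1, so that pair did not separate. The annotated exons of REL sum to 11.255 kb, of which 50.7% overlap a non-coding RNA on the same strand, and 25.1% of the exons of ICAM1 overlap an antisense RNA. The library kit does not mark strand, so reads from these partners would be counted with the genes, and their part in the values was not tested.

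**Figure D2:**
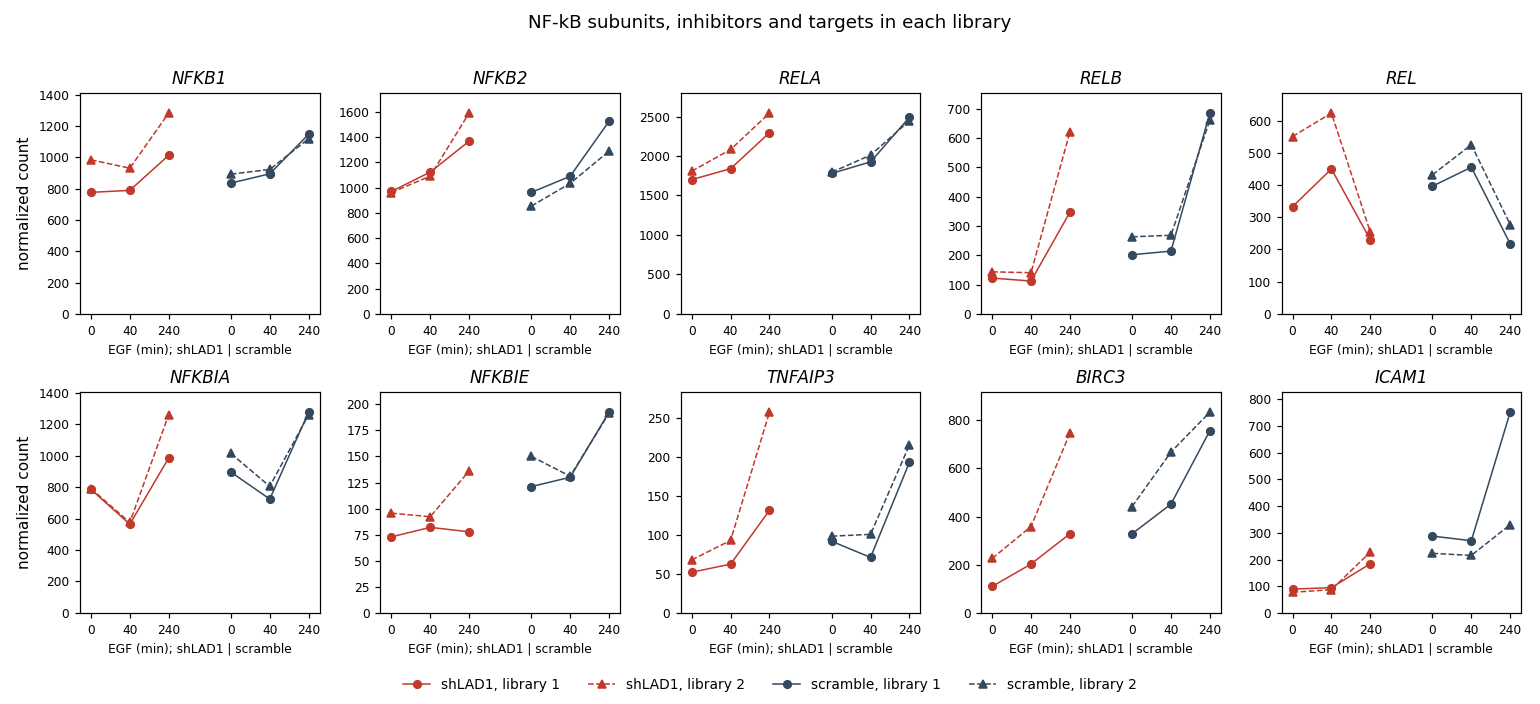
Normalized counts of the 10 genes in each of the 12 libraries against minutes of EGF, with shLAD1 left of scramble in each panel and lines joining libraries of the same number. RELB, TNFAIP3, BIRC3 and ICAM1 climb at 240 min and REL drops. BIRC3 and ICAM1 start lower in shLAD1 cells.

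Between 0 and 240 min of EGF most of the genes moved, and REL went the other way from the rest. In shLAD1 cells 7 genes rose, NFKB2, RELA, RELB, NFKBIA, TNFAIP3, BIRC3 and ICAM1, and REL fell. In scramble cells 5 rose, NFKB2, RELA, RELB, NFKBIA and TNFAIP3. Among all 13950 genes tested, 18.5% were called in shLAD1 cells (10.8% higher and 7.76% lower) and 20.2% in scramble cells (11.7% higher and 8.44% lower). A gene was called where its adjusted p (Benjamini-Hochberg, limma-trend fit over all 12 libraries) was under 0.05. Fold changes are on the scale of log2(normalized count + 1), which understates changes of low genes, with the standard error of that fit. When only the libraries of the groups compared entered the fit, 0 of the 10 genes were called at 240 against 0 min in shLAD1 cells and 8 in scramble cells, and 0 were called at 240 against 40 min in shLAD1 cells. That fit called 2.15%, 22.1% and 1.08% of all genes in these comparisons. Libraries of the same group differed more in shLAD1 than in scramble cells, with a chi-square per degree of freedom of 19.1 to 21.3 against 8.59 to 11.3. The fit over all 12 libraries gave a gene the same standard error in both kinds of cell. The part of this in the calls was not tested.

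RELB, the subunit that pairs mainly with the NFKB2 product in the non-canonical pathway, had the largest rise of the 10 genes in both kinds of cell. It had 122 and 143 normalized counts in shLAD1 cells at 0 min, 112 and 140.4 at 40 min, and 347 and 620.3 at 240 min. Scramble cells had 202 and 263 at 0 min, 214 and 268 at 40 min, and 686 and 661 at 240 min. Each 240 min library exceeded each 0 min and 40 min library of its own cells. How many of all genes had libraries apart between EGF times was not counted, for RELB or for the genes below. The log2 fold change from 0 to 240 min was 1.80 ± 0.26 in shLAD1 cells (adjusted p = 0.00222) and 1.54 ± 0.26 in scramble cells (adjusted p = 0.00412). Followed by library number, the 240 min level was 2.84 and 4.32 times the 0 min level in shLAD1 cells, and 3.40 and 2.51 times in scramble cells. No single left-out library ended the RELB call in either kind of cell.

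NFKB2, which encodes the p100 precursor of p52, and RELA, the p65 subunit of the canonical dimer, rose by less and with little spread. NFKB2 had 970.3 and 962 normalized counts in shLAD1 cells at 0 min and 1369 and 1592 at 240 min. Its scramble libraries had 963 and 854 at 0 min and 1526 and 1289 at 240 min. The log2 fold change of NFKB2 was 0.61 ± 0.11 in shLAD1 cells (adjusted p = 0.00452) and 0.63 ± 0.11 in scramble cells (adjusted p = 0.00358). RELA had 1701 and 1807 normalized counts in shLAD1 cells at 0 min and 2296 and 2544 at 240 min. In scramble cells RELA had 1779 and 1794 at 0 min and 2490.1 and 2447 at 240 min. All 240 min libraries of both genes lay above the 0 min libraries of the same cells. RELA changed by 0.46 ± 0.08 in shLAD1 cells (adjusted p = 0.00466) and 0.47 ± 0.08 in scramble cells (adjusted p = 0.00413). Neither gene lost its 240 min call when any 1 library was left out.

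NFKB1, which encodes the p105 precursor of p50, had 776 and 984 normalized counts in shLAD1 cells at 0 min and 1013 and 1283 at 240 min. The scramble values were 835 and 892 at 0 min and 1147 and 1119 at 240 min. The groups at 0 and 240 min did not overlap in either kind of cell. The log2 fold change was 0.38 ± 0.14 in shLAD1 cells (adjusted p = 0.097) and 0.39 ± 0.14 in scramble cells (adjusted p = 0.0849), so NFKB1 was not called. With the library number as a replicate block it was called in both, with an adjusted p of 0.0129 in shLAD1 cells and 0.0108 in scramble cells. Over all alternatives the adjusted p ran from 1.05e-05 to 0.429 in shLAD1 cells and from 7.13e-06 to 0.291 in scramble cells. With this block 30.5% of all genes were called at 240 min in shLAD1 cells and 32.7% in scramble cells. Without library 1 of shLAD1 at 240 min the log2 fold change of NFKB1 was 0.55, with an adjusted p of 0.0462.

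REL, which encodes c-Rel, a subunit best known from lymphocytes, was the only one of the 10 genes with lower levels at 240 min than at 0 min in both kinds of cell. It had 333 and 551 normalized counts in shLAD1 cells at 0 min, 449.9 and 623 at 40 min, and 230.2 and 254 at 240 min. Scramble cells had 396 and 432 at 0 min, 455 and 525 at 40 min, and 217 and 277 at 240 min. The 40 min level was above the 0 min level in each of the 4 library numbers, and the 240 min level was the lowest in each. From 0 to 240 min REL fell by 0.82 ± 0.24 on the log2 scale in shLAD1 cells (adjusted p = 0.0461). The change in scramble cells was -0.75 ± 0.24 (adjusted p = 0.0591), and with the replicate block its adjusted p was 0.00202, in a range of 6.59e-06 to 0.267 over the alternatives. The shLAD1 call ended without library 2 at 0 min, where the change was -0.46 with an adjusted p of 0.23. It also ended without library 1 at 240 min (-0.75, adjusted p = 0.167) and without library 2 at 240 min (-0.89, adjusted p = 0.12).

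NFKBIA encodes IkB alpha, the inhibitor that NF-kB itself induces, and it had a dip before its rise. It had 786 and 791 normalized counts in shLAD1 cells at 0 min, 564 and 575 at 40 min, and 985 and 1259.7 at 240 min. The scramble libraries held 895 and 1014 at 0 min, 724 and 805 at 40 min, and 1277 and 1260.3 at 240 min. Each 40 min library lay below both 0 min libraries of the same cells, and both 240 min libraries lay above both 0 min libraries in each kind of cell. The 40 min level was 71.8% and 72.7% of the 0 min level in shLAD1 cells, and 80.9% and 79.4% in scramble cells. From 0 to 40 min the log2 change was -0.47 ± 0.12 in shLAD1 cells (adjusted p = 0.179) and -0.32 ± 0.12 in scramble cells (adjusted p = 0.761), neither of them called. The replicate block, under which 1.96% of all genes were called, called it in shLAD1 cells, with an adjusted p of 0.0241 in a range of 0.000257 to 0.629 over the alternatives. From 40 to 240 min NFKBIA rose by 0.97 ± 0.12 in shLAD1 cells (adjusted p = 0.00104) and 0.73 ± 0.12 in scramble cells (adjusted p = 0.00302), calls that no single library ended.

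From 0 to 240 min NFKBIA rose by 0.50 ± 0.12 on the log2 scale in shLAD1 cells (adjusted p = 0.0176) and by 0.41 ± 0.12 in scramble cells (adjusted p = 0.0349). The shLAD1 call ended without library 1 at 0 min (0.49, adjusted p = 0.0658), without library 2 at 0 min (0.50, adjusted p = 0.0734) and without library 2 at 240 min (0.32, adjusted p = 0.0964). The scramble call ended without any of its 4 libraries, with an adjusted p of 0.0666 to 0.2.

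TNFAIP3 encodes A20, a ubiquitin-editing enzyme that shuts down signalling to IKK. It had 52.4 and 68.2 normalized counts in shLAD1 cells at 0 min, 62.8 and 93.3 at 40 min, and 132 and 258 at 240 min. Scramble values were 92.1 and 98.7 at 0 min, 71.4 and 101 at 40 min, and 194 and 216 at 240 min. All 240 min libraries lay above the earlier ones of the same cells. From 0 to 240 min TNFAIP3 rose by 1.61 ± 0.33 on the log2 scale in shLAD1 cells (adjusted p = 0.0094) and by 1.09 ± 0.33 in scramble cells (adjusted p = 0.0433). The shLAD1 call ended without library 1 at 0 min (1.42, adjusted p = 0.0545) and without library 2 at 240 min (1.13, adjusted p = 0.057). The scramble call ended without any of its 4 libraries, with an adjusted p of 0.12 to 0.183.

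NFKBIE encodes IkB epsilon, a relative of IkB alpha. It had 72.9 and 95.7 normalized counts in shLAD1 cells at 0 min, 82.1 and 92.2 at 40 min, and 77.8 and 136 at 240 min. Scramble cells held 121 and 150.1 at 0 min, 130.1 and 131 at 40 min, and 192 and 191 at 240 min. In shLAD1 cells the 240 min libraries overlapped those at 0 min, and in scramble cells they did not. The log2 change at 240 min was 0.30 ± 0.25 in shLAD1 cells (adjusted p = 0.476) and 0.51 ± 0.25 in scramble cells (adjusted p = 0.199), so NFKBIE was not called in either. With a block for each library number within shRNA, which called 48.1% of all genes in scramble cells, the scramble change had an adjusted p of 0.00852, in a range up to 0.548 over the alternatives.

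BIRC3 encodes cIAP2, a ubiquitin ligase that protects cells from death signals, and its libraries spread widely. It had 109.9 and 226 normalized counts in shLAD1 cells at 0 min, 203 and 358 at 40 min, and 328 and 745 at 240 min. In scramble cells it had 328 and 441 at 0 min, 451 and 667 at 40 min, and 755 and 833 at 240 min. Library 2 was above library 1 in each of the 6 groups, and within each library number the level was higher at each later time. By number, the 40 min level was 1.85 and 1.59 times the 0 min level in shLAD1 cells, and 1.38 and 1.51 times in scramble cells. At 240 min it was 2.99 and 3.30 times the 0 min level in shLAD1 cells, and 2.30 and 1.89 times in scramble cells. The log2 change from 0 to 240 min was 1.64 ± 0.48 in shLAD1 cells (adjusted p = 0.0478) and 1.06 ± 0.48 in scramble cells (adjusted p = 0.167). The replicate block called the scramble change, with an adjusted p of 0.00889 in a range of 9.57e-09 to 0.447 over the alternatives. The shLAD1 call ended without library 1 at 0 min (1.13, adjusted p = 0.218) and without library 2 at 240 min (1.05, adjusted p = 0.238).

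ICAM1 encodes an adhesion protein of the cell surface that binds leukocyte integrins. It had 89.3 and 77.3 normalized counts in shLAD1 cells at 0 min, 94.6 and 87 at 40 min, and 184 and 228 at 240 min. Scramble cells, at higher levels, had 288 and 223 at 0 min, 270.5 and 215 at 40 min, and 752 and 331 at 240 min. The highest shLAD1 library, at 240 min, was just above the lower scramble libraries at 0 and 40 min. From 0 to 240 min ICAM1 rose by 1.29 ± 0.33 on the log2 scale in shLAD1 cells (adjusted p = 0.0276), a call that ended without any of its 4 libraries (adjusted p = 0.0627 to 0.14). The change in scramble cells was 0.97 ± 0.33 (adjusted p = 0.0725), with a replicate block adjusted p of 0.0301 in a range of 0.0019 to 0.338 over the alternatives. Without library 2 of scramble at 240 min it was 1.57, with an adjusted p of 0.00744.

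**Figure D3:**
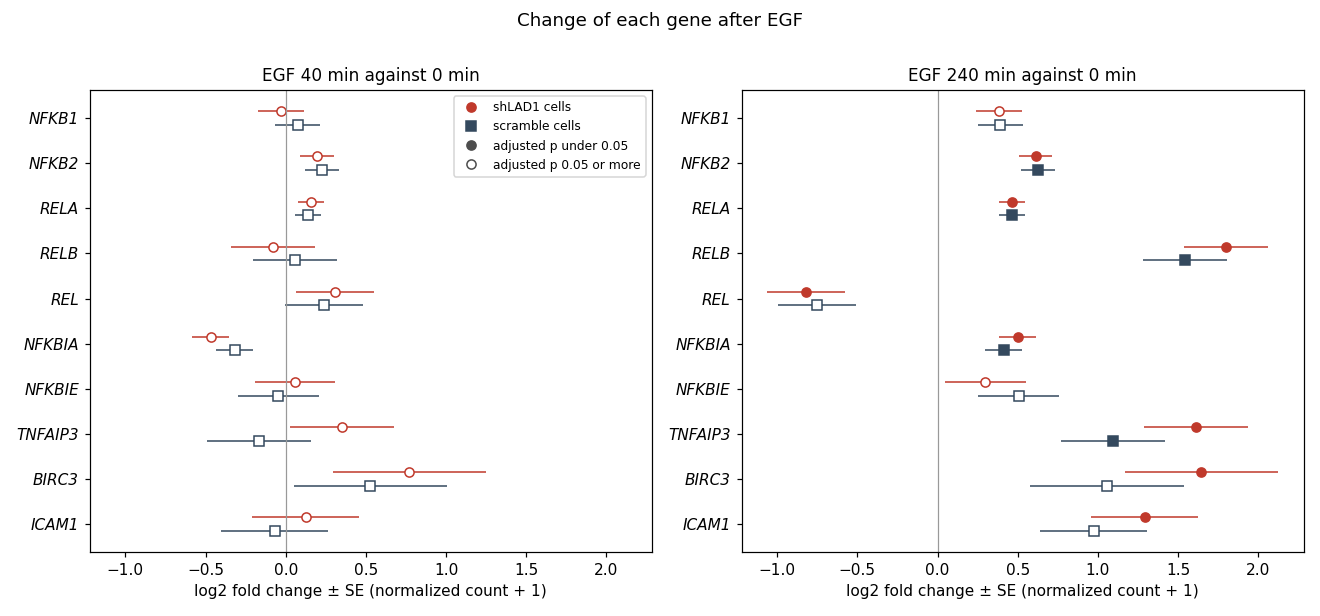
Log2 fold change of each gene after 40 min (left) and 240 min (right) of EGF against 0 min, with the standard error of the fit as the bar, shLAD1 above scramble and filled symbols for an adjusted p under 0.05. At 40 min none is filled; at 240 min RELB, TNFAIP3, BIRC3 and ICAM1 have the largest rises and REL lies below 0.

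At 40 min none of the 10 genes was called in either kind of cell, where 1.04% of all genes were called in shLAD1 cells and 0.853% in scramble cells. NFKBIA alone had an unadjusted p under 0.05, in both, which is 1 gene in each, beside 5.46% of all genes in shLAD1 cells and 4.54% in scramble cells. edgeR and DESeq2 on the recovered reads called 0 of the 10 in each. With a block for each of the 4 library numbers within shRNA, 2 genes were called in shLAD1 cells, BIRC3 up and NFKBIA down, and 3 in scramble cells, BIRC3 and NFKB2 up and NFKBIA down, where that block called 4.77% and 3.8% of all genes. Cells did respond by then, since 10 of 10 immediate early genes, FOS and EGR1 among them, were higher at 40 min in both kinds of cell. From 40 to 240 min 6 genes rose and REL fell in shLAD1 cells, where 16.4% of all genes were called (8.84% higher and 7.56% lower). In scramble cells 5 rose and REL fell, where 18.5% were called (10.2% higher and 8.34% lower).

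Besides NFKBIA, 5 genes were called in both kinds of cell from 40 to 240 min. RELB rose by 1.88 ± 0.26 on the log2 scale in shLAD1 cells (adjusted p = 0.00208) and 1.49 ± 0.26 in scramble cells (adjusted p = 0.0054), with no call lost to a left-out library. REL fell by 1.13 ± 0.24 in shLAD1 cells (adjusted p = 0.0143) and by 0.99 ± 0.24 in scramble cells (adjusted p = 0.0218), the only fall called among the 10 genes. TNFAIP3 rose by 1.26 ± 0.33 in both, with adjusted p of 0.0291 in shLAD1 cells and 0.0265 in scramble cells. NFKB2 rose by 0.41 ± 0.11 in shLAD1 cells (adjusted p = 0.0278) and 0.40 ± 0.11 in scramble cells (adjusted p = 0.0285). RELA rose by 0.30 ± 0.08 in shLAD1 cells (adjusted p = 0.032) and 0.33 ± 0.08 in scramble cells (adjusted p = 0.0217). ICAM1 was called in shLAD1 cells (1.17 ± 0.33, adjusted p = 0.0443) and not in scramble cells (1.04 ± 0.33, adjusted p = 0.0613), where the replicate block gave an adjusted p of 0.0241 in a range of 0.00126 to 0.266.

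Among the genes that the fit without a block did not call from 40 to 240 min, NFKB1 changed by 0.41 ± 0.14 in shLAD1 cells (adjusted p = 0.082) and 0.32 ± 0.14 in scramble cells (adjusted p = 0.161). The replicate block called both, with an adjusted p of 0.00959 in shLAD1 cells (range 4.37e-06 to 0.374) and 0.0302 in scramble cells (range 0.000103 to 0.393), where the block called 28.7% of all genes in shLAD1 cells and 30.5% in scramble cells. BIRC3 in shLAD1 cells changed by 0.87 ± 0.48 (adjusted p = 0.27), with a blocked adjusted p of 0.0231 in a range of 2.3e-07 to 0.784. In scramble cells BIRC3 changed by 0.53 ± 0.48 (adjusted p = 0.515) and NFKBIE by 0.55 ± 0.25 (adjusted p = 0.169). The block within shRNA, which called 46.3% of all genes there, gave an adjusted p of 0.000131 for BIRC3 and 0.00473 for NFKBIE, and the fit of only the groups compared gave 0.0277 for NFKBIE. Over the alternatives the adjusted p reached 0.859 for BIRC3 and 0.373 for NFKBIE.

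Of the 13 calls from 40 to 240 min, those of RELB and NFKBIA held in all refits with 1 library left out, and the others were lost in some or all of them. In shLAD1 cells, leaving out library 2 at 240 min ended the calls of NFKB2 (0.31, adjusted p = 0.162), RELA (0.23, adjusted p = 0.178), REL (-1.20, adjusted p = 0.0592), TNFAIP3 (0.78, adjusted p = 0.163) and ICAM1 (1.01, adjusted p = 0.191). Leaving out library 1 at 40 min ended those of NFKB2 (0.43, adjusted p = 0.0785), RELA (0.21, adjusted p = 0.167), TNFAIP3 (0.98, adjusted p = 0.147) and ICAM1 (1.23, adjusted p = 0.117). Leaving out library 2 at 40 min ended those of NFKB2 (0.39, adjusted p = 0.115), REL (-0.89, adjusted p = 0.0892) and ICAM1 (1.11, adjusted p = 0.162). Leaving out library 1 at 240 min ended those of REL (-1.06, adjusted p = 0.0696) and ICAM1 (1.32, adjusted p = 0.088), and it brought NFKB1 to 0.58 with an adjusted p of 0.0436. In scramble cells RELA, REL and TNFAIP3 lost their calls without any of the 4 libraries. Their adjusted p ran from 0.0781 to 0.131 for RELA, 0.0535 to 0.131 for REL and 0.0579 to 0.171 for TNFAIP3. NFKB2 lost its scramble call without library 1 at 40 min (adjusted p = 0.0913), library 2 at 40 min (0.156) and library 1 at 240 min (0.175). ICAM1 in scramble cells was 1.64, with an adjusted p of 0.00789, without library 2 at 240 min.

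Between shLAD1 and scramble cells the inhibitors NFKBIA and NFKBIE, the subunit RELB and the targets BIRC3 and ICAM1 were lower in shLAD1 cells, averaged over the 3 times, while NFKB1, NFKB2, RELA and REL lay between -0.02 and 0.07 on the log2 scale. Those 5 genes were called, all lower, where 18.6% of all genes were called and 9.3% were lower. In the same 5 genes both shLAD1 libraries lay below both scramble libraries at each of the 3 times, which held for 10.6% of the 13950 genes. At 240 min the gap was narrow for NFKBIA (1259.7 normalized counts in the higher shLAD1 library, 1260.3 in the lower scramble library) and for BIRC3 (745 and 755). ICAM1 had the largest difference, -1.43 ± 0.19 (adjusted p = 0.00212). BIRC3 differed by -0.99 ± 0.28 (adjusted p = 0.0424), RELB by -0.75 ± 0.15 (adjusted p = 0.011), NFKBIE by -0.72 ± 0.15 (adjusted p = 0.0105) and NFKBIA by -0.29 ± 0.07 (adjusted p = 0.0174). TNFAIP3 was at -0.32 ± 0.19 (adjusted p = 0.261).

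These calls count the 3 times of a library number as separate samples. When each of the 4 library numbers was averaged over its times first, leaving 2 shLAD1 against 2 scramble, 0 of the 10 genes and 0 of the 13950 were called. The adjusted p was then 0.197 for ICAM1, 0.286 for RELB, 0.296 for NFKBIE, 0.321 for NFKBIA and 0.4 for BIRC3, beside 0.111 for LAD1. No left-out library ended the calls of ICAM1, RELB and NFKBIE. The call of NFKBIA ended without library 2 of scramble at 0 min (-0.26, adjusted p = 0.0549) and without library 2 of scramble at 40 min (-0.27, adjusted p = 0.0565). The call of BIRC3 ended in 9 of 12 refits: without any scramble library, and without library 1 of shLAD1 at 0, 40 or 240 min, with an adjusted p up to 0.108.

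**Figure D4:**
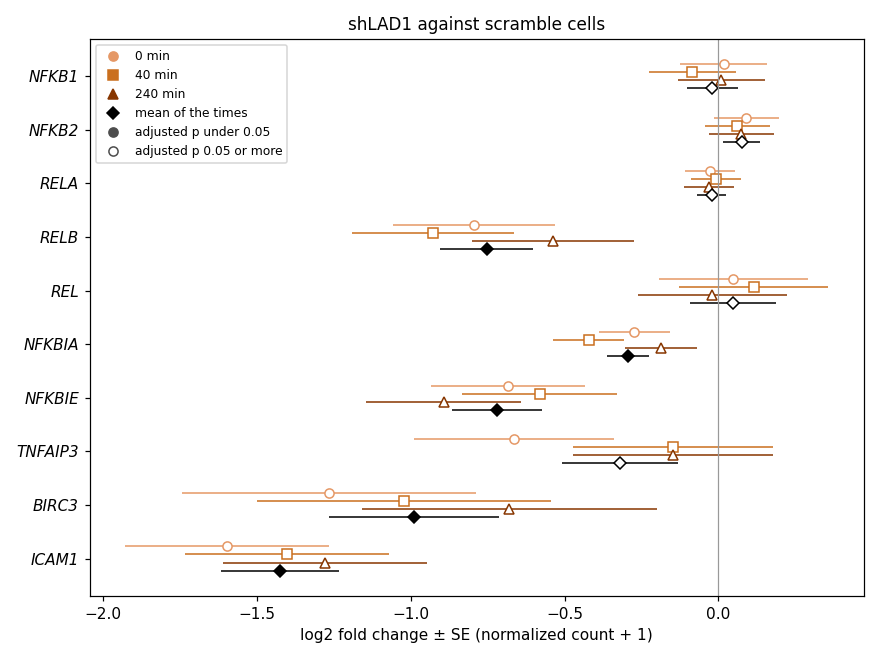
Log2 difference between shLAD1 and scramble cells for each gene at 0, 40 and 240 min and over the mean of the times, with the standard error of the fit as the bar and filled symbols for an adjusted p under 0.05. Only the mean of the times has filled symbols, for RELB, NFKBIA, NFKBIE, BIRC3 and ICAM1, all left of 0.

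At single times no gene of the 10 was called, where 1.56% of all genes were called at 0 min, 1.65% at 40 min and 0.953% at 240 min. At an unadjusted p under 0.05 there were 5 genes at 0 min (RELB, NFKBIA, NFKBIE, BIRC3 and ICAM1), 4 at 40 min (RELB, NFKBIA, NFKBIE and ICAM1) and 2 at 240 min (NFKBIE and ICAM1), beside 15.7%, 16.1% and 15.1% of all genes. edgeR called 0 at each time. DESeq2 called ICAM1 at each time, with an adjusted p of 0.00134, 0.00668 and 0.00754, and RELB at 40 min (adjusted p = 0.0488), where it called 3.67%, 3.86% and 2.75% of the 13950 genes. Paired by library number, ICAM1 in shLAD1 cells was at 31.0% and 34.7% of its scramble level at 0 min, 35.0% and 40.4% at 40 min, and 24.5% and 69.0% at 240 min. BIRC3 was at 33.5% and 51.2% at 0 min, 44.9% and 53.7% at 40 min, and 43.5% and 89.5% at 240 min. RELB was at 60.5% and 54.5%, then 52.3% and 52.4%, then 50.6% and 93.8%. For each of these genes number 2 at 240 min was the pair closest to equal levels.

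The authors' deposited table holds 1 comparison, whose log2 fold changes lie within 0.01 of the shLAD1 to scramble ratio at 0 min for 99.98% of 11243 genes with a mean of at least 50. In the authors' deposited table ICAM1 has an adjusted p of 0.00123, and the other 9 genes have values from 0.107 (BIRC3) to 0.985 (NFKB1).

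The replicate block called 4 genes at 0 min, 4 at 40 min and 2 at 240 min, where with that block 11.5%, 11.3% and 10.5% of all genes were called. At 0 min these were RELB (blocked adjusted p = 0.0144), NFKBIE (0.0442), BIRC3 (0.0123) and ICAM1 (0.0109), for log2 differences of -0.80 ± 0.26, -0.68 ± 0.25, -1.27 ± 0.48 and -1.60 ± 0.33. Their adjusted p over the alternatives reached 0.627 for RELB, 0.685 for NFKBIE, 0.723 for BIRC3 and 0.253 for ICAM1. At 40 min the block called RELB (-0.93 ± 0.26, blocked adjusted p = 0.00724), NFKBIA (-0.42 ± 0.12, 0.0152), BIRC3 (-1.02 ± 0.48, 0.0272) and ICAM1 (-1.40 ± 0.33, 0.0177). Their adjusted p reached 0.54 for RELB, 0.531 for NFKBIA, 0.794 for BIRC3 and 0.339 for ICAM1. At 240 min the block called NFKBIE (-0.89 ± 0.25, blocked adjusted p = 0.0181) and ICAM1 (-1.28 ± 0.33, 0.0278), whose adjusted p reached 0.603 and 0.528.

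Some markers of other cell types also differed between shLAD1 and scramble cells. Of the 4 fibroblast markers 1 was tested, COL1A1, and it was called, higher in shLAD1 cells by 1.26 ± 0.10 on the log2 scale. The others did not pass the filter, and COL3A1 ran from 0 to 1.02 normalized counts over the 12 libraries. The summed fibroblast markers ran from 511 to 898 normalized counts in shLAD1 libraries, against 243 to 378 in scramble libraries. Of the 7 immune markers 3 were tested and 2 were called, CD68 and CSF1R, both higher in shLAD1 cells. The other tested marker, CD14, was not called and ran from 547 to 1354 normalized counts over the 12 libraries. The pan-leukocyte marker PTPRC ran from 0 to 1.11 and the B cell marker MS4A1 was at 0. The summed immune markers ran from 1676 to 2939.6 normalized counts in shLAD1 libraries, against 1709 to 2338 in scramble libraries. Of the 3 endothelial markers, all tested, 1 was called, CDH5, and the sums were 29.8 to 46 in shLAD1 libraries, against 10.1 to 17.6 in scramble libraries. Of the 6 basal markers, all tested, 1 was called, the keratin KRT6A, higher in shLAD1 cells (1.77 ± 0.35). The median log2 difference of the basal list was 0.04. Of the 3 luminal and hormone receptor markers 2 were tested and 1 was called, GATA3, higher in shLAD1 cells (0.13 ± 0.04). None of these marker genes was called when each library number was averaged over its times first. The part of these genes in the NF-kB differences was not tested.

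The response to EGF was compared between the kinds of cell directly, as the shLAD1 change minus the scramble change. None of the 10 genes was called at 40 or 240 min, nor was any of the 13950 genes, so 0% of all genes were called at either time. At an unadjusted p under 0.05 there were 99 genes at 40 min (0.71%) and 133 at 240 min (0.953%), none of them among the 10, and edgeR and DESeq2 called 0 of the 10. A block for each library number within shRNA called 11 genes at 40 min (0.0789%) and 27 at 240 min (0.194%), again none of the 10. The largest differences were 0.59 ± 0.68 for BIRC3 and 0.52 ± 0.46 for TNFAIP3, both at 240 min. Without library 2 of shLAD1 at 240 min they were -0.0034 for BIRC3 and 0.04 for TNFAIP3. Over all left-out libraries they ran from -0.0034 to 1.18 for BIRC3 and from 0.04 to 0.9998 for TNFAIP3. At 40 min the largest difference was 0.52, also for TNFAIP3, and its estimate does not use the 240 min libraries. Standard errors of these differences ran from 0.11 for RELA to 0.68 for BIRC3.

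Genes upstream of the subunits were followed from a list of 23 kinases and adaptors, all tested. At 40 min 3 were higher and 0 lower in shLAD1 cells, and 2 were higher and 0 lower in scramble cells. Over all genes 1.04% were called at that time in shLAD1 cells and 0.853% in scramble cells. BCL10, which links receptors to IKK together with MALT1 and CARD proteins, had 516 and 556 normalized counts in shLAD1 cells at 0 min and 1147 and 1388 at 40 min. In scramble cells it had 461 and 493 at 0 min and 1016 and 1092 at 40 min. It rose by 1.23 ± 0.11 on the log2 scale in shLAD1 cells (adjusted p = 0.000581) and by 1.14 ± 0.11 in scramble cells (adjusted p = 0.00122). MAP3K14, the NIK kinase of the non-canonical pathway, rose by 0.52 ± 0.10 in shLAD1 cells (adjusted p = 0.0404) and 0.54 ± 0.10 in scramble cells (adjusted p = 0.0385). Over the alternatives the adjusted p of BCL10 reached 0.114 in shLAD1 cells and 0.0234 in scramble cells, and that of MAP3K14 reached 0.625 and 0.407.

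At 240 min 6 of the 23 were higher and 1 lower in shLAD1 cells, and 7 were higher and 2 lower in scramble cells. Over all genes 18.5% were called in shLAD1 cells (10.8% higher) and 20.2% in scramble cells (11.7% higher). The list's median log2 change was 0.16 in shLAD1 cells and 0.14 in scramble cells, beside -0.01 and -0.02 over all genes. CARD10, the scaffold that joins BCL10 and MALT1 in non-immune cells, had 1006 and 946 normalized counts in shLAD1 cells at 0 min and 2623 and 2871 at 240 min. The scramble libraries had 893 and 947 at 0 min and 2519 and 2634 at 240 min. It rose by 1.49 ± 0.07 in shLAD1 cells (adjusted p = 2.34e-05) and by 1.48 ± 0.07 in scramble cells (adjusted p = 1.9e-05), with its 40 min libraries still at 1077 and 1011 in shLAD1 cells and at 920.1 and 929 in scramble cells. TRAF3, which holds NIK in check, rose by 0.76 ± 0.15 in shLAD1 cells (adjusted p = 0.00839) and 0.91 ± 0.15 in scramble cells (adjusted p = 0.00319). For this comparison CARD10 kept an adjusted p of at most 0.029 under every alternative run, and TRAF3 reached 0.0902 in shLAD1 cells. Averaged over the times, 1 kinase or adaptor was higher and 2 were lower in shLAD1 than in scramble cells, a share of the 23 below the 18.6% called among all genes. Among them IKBKE, which encodes the kinase IKK epsilon, was at -0.43 ± 0.10 (adjusted p = 0.0186).

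Of 18 other IkB proteins and negative regulators, 17 had a row and were tested. At 40 min 1.04% of all genes were called in shLAD1 cells and 0.853% in scramble cells. Of the 17, 1 was higher and 0 lower in each kind of cell, ZC3H12A, which encodes the RNase Regnase-1. It had 462 and 472 normalized counts in shLAD1 cells at 0 min, 1521 and 2256 at 40 min, and 498 and 578 at 240 min. In scramble cells it had 584 and 613 at 0 min, 1943 and 2188 at 40 min, and 609 and 648 at 240 min. The 40 min change was 1.99 ± 0.16 in shLAD1 cells (adjusted p = 0.000273) and 1.78 ± 0.16 in scramble cells (adjusted p = 0.000661), at the time of the lowest NFKBIA level, and over the alternatives the adjusted p reached 0.114 and 0.0144. At 240 min 3 were higher and 0 lower in shLAD1 cells, and 2 were higher and 0 lower in scramble cells. Over all genes 18.5% were called in shLAD1 cells (10.8% higher) and 20.2% in scramble cells (11.7% higher). Counted in either direction, the called share of the 17 was no larger than that over all genes. Counting rises only, the 3 of 17 in shLAD1 cells were a larger share than the 10.8% of all genes. In scramble cells the 2 of 17 were near the 11.7%. ITCH, a ubiquitin ligase, and PDLIM2, a ubiquitin ligase for RELA, were called in both, ITCH at 0.60 ± 0.07 in shLAD1 cells and 0.70 ± 0.07 in scramble cells, and PDLIM2 at 0.67 ± 0.13 and 0.80 ± 0.13. Averaged over the times, 1 was higher and 2 were lower in shLAD1 cells, a share of the 17 near the 18.6% called among all genes, with TNIP3, whose product binds A20, at -2.15 ± 0.41 (adjusted p = 0.00875) and PDLIM2 at -0.35 ± 0.07 (adjusted p = 0.0125).

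A list of 38 other textbook targets had 37 rows and 30 tested genes. At 40 min 6 were higher and 0 lower in shLAD1 cells, and 5 were higher and 0 lower in scramble cells. Over all genes 1.04% and 0.853% were called. At 240 min 13 were higher and 3 lower in shLAD1 cells, and 11 were higher and 3 lower in scramble cells. Over all genes 10.8% were higher and 7.76% lower in shLAD1 cells, and 11.7% were higher and 8.44% lower in scramble cells. The median log2 change at 240 min was 0.93 in shLAD1 cells and 0.74 in scramble cells, beside -0.01 and -0.02 over all genes. The neutrophil attractant CXCL1 rose by 3.46 ± 0.24 in shLAD1 cells (adjusted p = 7.5e-05) and by 2.86 ± 0.24 in scramble cells (adjusted p = 0.000173). TNFAIP2, another target, fell by 0.76 ± 0.14 in shLAD1 cells (adjusted p = 0.00576) and by 1.21 ± 0.14 in scramble cells (adjusted p = 0.000574). Many of these genes also respond to other pathways that EGF turns on.

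Averaged over the times, 3 of the 30 were higher and 9 lower in shLAD1 than in scramble cells, where 9.25% of all genes were higher and 9.3% lower. The list's median log2 difference was -0.10, beside 0.00 over all genes. CD83, a surface protein of activated immune cells, had 8.21 and 8.14 normalized counts in shLAD1 cells at 0 min, 20.3 and 13.6 at 40 min, and 16.4 and 24 at 240 min. In scramble cells it had 35.2 and 33.9 at 0 min, 46.8 and 50.1 at 40 min, and 58.5 and 56.8 at 240 min. CD83 was lower in shLAD1 cells at each time, with a log2 difference of -1.95 ± 0.28 at 0 min (adjusted p = 0.017), -1.49 ± 0.28 at 40 min (adjusted p = 0.0366) and -1.49 ± 0.28 at 240 min (adjusted p = 0.0461). Over the alternatives its adjusted p reached 0.185, 0.255 and 0.292. SOD2, the mitochondrial superoxide dismutase, had 682 to 942 normalized counts in shLAD1 libraries, against 1076 to 1435 in scramble libraries, a difference of -0.67 ± 0.11 (adjusted p = 0.0044). The monocyte attractant CCL2 had 0 reads in 5 shLAD1 libraries and 1 in the other, against 68 and 13 reads in scramble cells at 0 min, 73 and 16 at 40 min, and 80 and 16 at 240 min. TNFAIP8 went the other way, at 0.38 ± 0.07 (adjusted p = 0.00679). As for the 10 genes, none of these differences over the mean of the times was called when each library number was averaged first.

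Patterns most like those of the 10 genes were looked for as the highest Pearson correlation of log2(normalized count + 1) over the 12 libraries, among 3174 genes whose group means spanned at least 1 on that scale. The 12 libraries share the EGF times and the shRNAs, so these values are descriptions. NFKB1, NFKB2 and RELA did not span 1 and got no match. RELB was most like HMGA1 (r = 0.989), CIRH1A (0.982) and OSMR (0.981). TNFAIP3 was most like GRWD1 (r = 0.973), SERPINB1 (0.971) and ANTXR2 (0.967). BIRC3 was most like CCND1 (r = 0.986), the cyclin D1 gene and a member of the target list, then CEACAM1 (0.977) and the target CXCL3 (0.960). ICAM1 was most like RRP36 (r = 0.953), VIM (0.947) and PAPL (0.937). NFKBIA was most like TRIM65 (r = 0.956), MIR155HG (0.940) and ULBP3 (0.927), and NFKBIE was most like EGLN3 (r = 0.960), UGT8 (0.956) and PAG1 (0.950). REL was most like FAM214A (r = 0.971), CDON (0.952) and ALPK1 (0.952).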

How the data were processed

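Poly-A RNA of 12 HCC70 libraries was sequenced; the labels name the kit TruSeq RNA v2. STAR, DESeq2 and hg19 are listed in the submitters' processing notes. Versions, annotation and strand use were not given in the sources used here. Signal columns of the authors' deposited table were found to hold reads divided by a size factor; whole reads were recovered to within 0.001 for 100% of values. The deposited table also gives the authors' mean signal, log2 fold changes, their errors, a Wald score and p-values, with no named contrast. No column of samples was left unused (0).

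The design named edgeR for raw counts. Since the deposited values are normalized, robust limma-trend (limma 3.58.1, R 4.3.3) on log2(normalized count + 1) was used, with a mean per group over all 12 libraries. Genes that reached 10 normalized counts in fewer than 2 libraries were left out, which kept 13950, with Benjamini-Hochberg adjustment within each of 12 comparisons at 0.05. The 10 genes, the lists and the tests were chosen with earlier results of these data known. Named were the 10 genes, LAD1, the called genes of each list (4 at most, by adjusted p), and 3 genes of like pattern each. Marker genes were named to give the whole list. edgeR 4.0.16 and DESeq2 on the recovered reads, other scalings, a pseudocount of 5, no filter, only the groups compared, left-out libraries and blocks were alternatives. The average over each library number was added after the data were seen.

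The library numbers paired the samples: deviations from group means correlated at 0.645 to 0.734 between groups of the same shRNA and at 0.247 to 0.307 between groups of different shRNAs. A fit with that number as a block stands beside each result whose call it changes. Replicates differed by more than counting noise, and by more in shLAD1 than in scramble cells. The chi-square per degree of freedom was 19.1 to 21.3 in the shLAD1 groups and 8.59 to 11.3 in the scramble groups. The reported fit shares a single spread per gene over all 6 groups. The fitted errors come from the spread between libraries. The fit was tested on simulated data with independent libraries and the same spread in all groups. That test therefore does not cover the pairing by library number or the larger spread of the shLAD1 groups.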

Additional observations from a re-analysis of the deposited data

How the results depend on the processing

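Of the 120 fold changes of the 10 genes, 58 were called in the reported fit or under some alternative, and none of these changed sign under any alternative. Of the other 62, 41 changed sign in 81 of 1025 refits, with a lowest adjusted p of 0.467. Only counts that moved by over 1.5 times are given here, as genes of the 10. With the replicate block, 1 gene was called at 40 min in shLAD1 cells (0 without it), 9 at 240 against 0 min in scramble cells (5 without it), and 4, 4 and 2 between shLAD1 and scramble cells at 0, 40 and 240 min (0 without it); it changed no other count by as much. With a block within shRNA the counts were 2 at 40 min in shLAD1 cells, 3 at 40 min in scramble cells, 10 at 240 against 0 min in scramble cells and 10 at 240 against 40 min in scramble cells (6 without it). Fitting only the groups compared gave 0 at 240 against 0 min in shLAD1 cells (8 in the fit of all groups), 0 at 240 against 40 min in shLAD1 cells (7) and 8 at 240 against 0 min in scramble cells (5). Total-count scaling gave 4 at 240 against 40 min in shLAD1 cells. DESeq2 gave 1, 2 and 1 between shLAD1 and scramble cells at 0, 40 and 240 min. Averages over each library number gave 0 over the mean of the times (5). Left-out libraries gave 3 to 7 at 240 against 0 min in shLAD1 cells, 3 to 4 in scramble cells, 2 to 6 at 240 against 40 min in shLAD1 cells, 2 to 4 in scramble cells, 3 to 5 over the mean of the times between shLAD1 and scramble cells, and 0 in the other comparisons. A left-out library leaves its group with 1 sample, which is assumed to vary like the others.

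Calls of single genes also moved with scaling, filter and tool. In shLAD1 cells BIRC3 at 240 min had an adjusted p of 0.053 with upper-quartile scaling, 0.0522 with total-count scaling and 0.0763 without the filter. In scramble cells REL at 240 min had 0.0496 with upper-quartile scaling, 0.0273 with total-count scaling and 0.0324 with DESeq2, and NFKBIA had 0.0507 with upper-quartile and 0.0934 with total-count scaling. TNFAIP3 in scramble cells at 240 min had 0.055 with total-count scaling. From 40 to 240 min total-count scaling ended the calls of NFKB2 (0.0597 in shLAD1 cells and 0.0726 in scramble cells) and, in shLAD1 cells, of RELA (0.0606) and ICAM1 (0.0576). ICAM1 in shLAD1 cells also had 0.0507 without the filter and 0.0583 with edgeR, and in scramble cells it was called with edgeR (0.0462) and DESeq2 (0.00945). Without the filter REL at 240 against 0 min in shLAD1 cells had 0.0511, and BIRC3 over the mean of the times had 0.0652. In scramble cells at 240 against 0 min DESeq2 called ICAM1 (0.0157), and the fit of only the groups compared called NFKB1 (0.0165), REL (0.017) and BIRC3 (0.00734), and NFKB1 (0.0246) at 240 against 40 min. The causes of these changes were not tested. Over all genes the count called between shLAD1 and scramble cells ran from 0 to 5034 over the mean of the times (2588 as reported), and that at 240 against 0 min from 300 to 6450 in shLAD1 cells (2585) and from 1354 to 6715 in scramble cells (2813). With 2 libraries per group, differences of several standard errors could be missed: ICAM1 at 0 min, at -1.60 ± 0.33, was not called between shLAD1 and scramble cells.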
